A study of Mus musculus with 9 samples.

Results

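The genes described here are 36 genes of glycolysis and of the response to low oxygen, chosen by name, and their RNA was followed across 3 organoid media. All 36 were found among the 49585 genes in the files by matching gene identifiers to mouse symbols, and all 36 passed the filter on low values, which left 15913 genes to test. RNA was sequenced from organoids that had been grown for 5 days from flow-sorted prostate basal cells of C57BL/6J mice, with 3 libraries in each group. RD7 organoids received R-spondin1 at 500 ng/ml and dihydrotestosterone (DHT), the potent androgen, at 100 nM. R organoids received R-spondin1 alone, at the same 500 ng/ml; this secreted factor strengthens Wnt signalling. BM organoids received the basal medium without either agent. The medium of all 3 groups held EGF, Noggin (a BMP antagonist), A83-01 (which blocks the receptor kinase for TGF-β), Y-27632 (which blocks the kinase ROCK), N-acetylcysteine and B27. No group received DHT without R-spondin1. The labels give no oxygen level and no age of the mice, and they do not tell separate animals, sorts or cultures apart, so p-values measure the spread between these samples only.

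Glycolysis breaks glucose down to pyruvate in the cytosol, and the lactate made from pyruvate leaves the cell through monocarboxylate transporters. Hypoxia-inducible factors (HIFs) are transcription factors made of an oxygen-sensitive α subunit and a stable β subunit. When oxygen is present, prolyl hydroxylases mark the α subunit for degradation. When oxygen is low the α subunit escapes, binds DNA at a short core sequence and raises genes of glucose uptake, glycolysis, acid handling and blood vessel growth. Several of these genes, among them those of the glucose transporter GLUT1 and of carbonic anhydrase IX, also respond to other growth signals. The values here are RNA levels, and HIF protein was not measured.

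Relative to R, RD7 organoids had less RNA for Hif1a, the gene of the best known HIF α subunit, and for many of the classical hypoxia-response genes, while most enzymes of the glycolytic chain did not pass the test. In RD7 against R, 12 of the 36 genes fell, or 33.3%, and 1 rose, or 2.78%. Among all genes tested in that comparison 17.7% were called lower and 13.3% higher. In R against BM, 6 of the 36 rose, or 16.7%, and 1 fell, or 2.78%, where 4.36% of all genes tested were called higher and 5.64% lower. The genes that moved most were Stc1, a secreted glycoprotein hormone, which was 20.97-fold higher in R than in BM and 67.6-fold lower in RD7 than in R (between 46.8 and 118-fold when 1 library was left out, the highest without RD7 2), and Car9, a carbonic anhydrase of the cell surface, which was 5.69-fold lower in RD7 than in R. Calls are those of limma on log2(FPKM + 0.5), at a Benjamini-Hochberg adjusted p under 0.05 over all 15913 genes. FPKM divides the reads of a gene by its exon length and by the total of its library, so levels can be compared between genes only roughly. The exon length need not be that of the transcripts present. Folds are ratios of group mean FPKM, and log2 fold changes, with their SE, are on the log2(FPKM + 0.5) scale, on which changes of genes near 0.5 FPKM are understated. In bulk RNA, fewer cells of a type and less RNA per cell cannot be told apart.

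**Figure D1:**
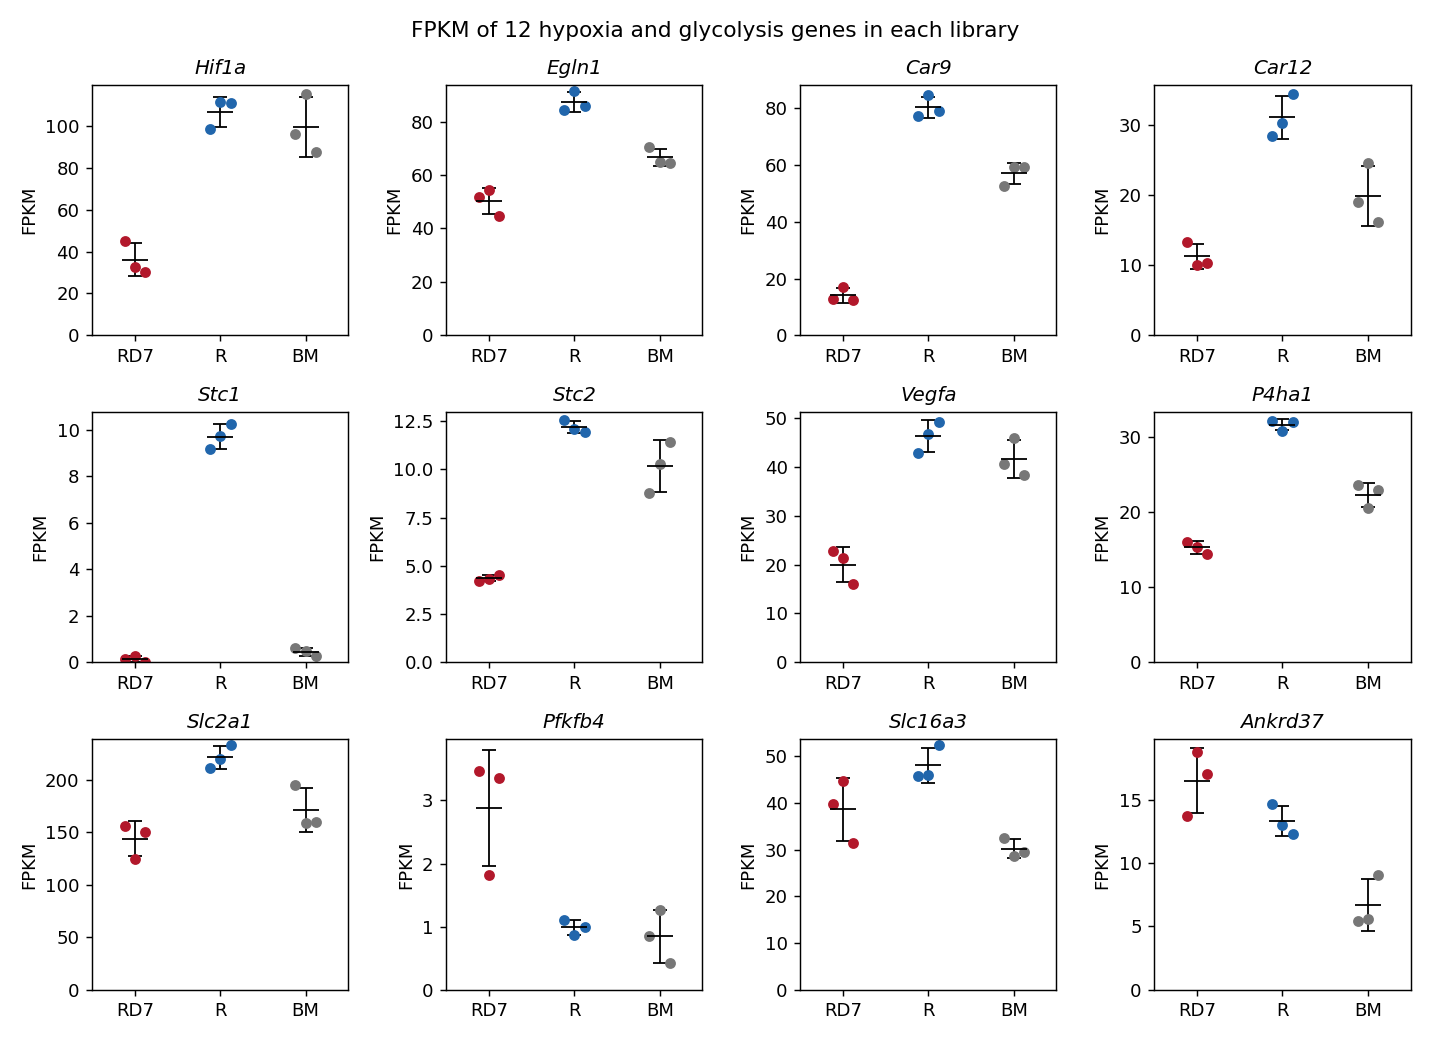
FPKM of 12 of the 36 genes (vertical axes, each from 0) in each library of RD7, R and BM; points are libraries, horizontal bars group means and whiskers 1 SD, n = 3. Hif1a, Egln1, Car9, Car12, Stc1, Stc2, Vegfa, P4ha1, Slc2a1 and Slc16a3 were lower in every RD7 library than in any R library, Slc16a3 without a call. Pfkfb4 was higher in every RD7 library.

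The libraries held between 6505859 (BM 1) and 24141017 (BM 2) reads counted in genes, and a gene with 0 reads could stand at up to 0.461 CPM in BM 1 and at up to 0.188 CPM in the others. The summed FPKM of 7 basal cell markers lay at 8387 to 9457 in RD7, 9800 to 10378 in R and 7159 to 8071 in BM, so markers of the labelled cell type were abundant in all groups, and the sums did not overlap. The summed FPKM of 9 luminal markers lay at 1927 to 2318 in RD7, 1766 to 2059 in R and 2242 to 2781 in BM, with overlap between RD7 and both others. The 5 endothelial and 7 leukocyte markers summed to at most 0.536 and 4.09 FPKM in any library, and the 4 globin genes stood at 0 in all. The 7 mesenchymal markers summed to 65.0 to 93.2 FPKM in RD7, 22.8 to 29.2 in R and 15.6 to 24.4 in BM, a sum that was almost all Dcn (76.6 ± 14.1 FPKM in RD7 and 21.9 ± 2.71 FPKM in R, SD, n = 3). Dcn was the 1 of the 7 called higher in RD7 against R, and 4 were called lower, Acta2, Vim, Col1a1 and Pdgfrb, the last 3 at under 0.3 FPKM in both groups. The 6 proliferation markers summed to 165 to 180.1 FPKM in RD7, 231 to 254 in R and 209 to 247 in BM, so RD7 lay below the other groups, which overlapped. In RD7 against R, 4 of the 7 basal (57.1%) and 3 of the 6 proliferation markers (50.0%) were called lower. Of the mesenchymal markers 57.1% were called lower and 14.3% higher. Among all genes tested 17.7% were called lower and 13.3% higher. The part of these differences in the values below was not tested. Longer genes had lower fold changes, with a Spearman correlation across the genes tested of -0.22 in RD7 against R, -0.33 in R against BM and -0.38 in RD7 against BM. Within one group, BM 3 set against BM 1 and BM 2 had a value of -0.45. No other library was set against its own group in this way, so the value does not single out BM 3. Genes are not independent replicates.

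The core letters that HIF binds are known, so the promoters of the 36 genes were searched for them, from 250 bases before to 50 bases after each RefSeq start site. The motif ACGTG, searched on both strands, was in the promoter of 22 of the 33 genes with a promoter sequence (all but Slc2a3, Bnip3l and Stc1), or 66.7%, and in 21.8% of all 27025 genes with one. With GCGTG also counted, which covers the other form of the core, 30 of the 33 genes had a match, or 90.9%, and 46.7% of all genes. A stretch that reads the same on both strands, such as CACGTG, counts once on each. The list is made largely of genes known as HIF targets, so this is a description of the list, and a match is not evidence of binding. Sequences are shown as examples for 10 of the 22 genes with a match, all named in the results; other called genes with a match, such as Pkm, Aldoc, Vegfa and Egln3, are not printed. Each is 30 bases on GRCm38, from RefSeq (GRCm38.p6), read 5′ to 3′ on the strand that spells the motif, with the central ACGTG in capitals.
Hif1a: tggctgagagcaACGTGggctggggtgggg
Egln1: gggccgtggtgtACGTGcagcgcgcgcgga
Car9: tggacgggctgtACGTGcatcggaaatagg
P4ha1: gcagccctcgctACGTGcgctctgtcacac
Slc2a1: gtcccgccccggACGTGctccccaggcccc
Slc16a3: cgtgcgcgggggACGTGccgcgcgacggat
Ankrd37: cagtgtttgggtACGTGaggccgcagcggg
Ldha: ggagcccagcggACGTGcgggaacccacgt
Pgk1: gagactagtgagACGTGctacttccatttg
Hk2: ccccggacagtgACGTGgatgtgctcattg

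Distances are those of the base of the core that lay farthest from the start site. This base lay 70 bases before the start site of Hif1a (chr12:73907785-73907814, plus strand) and 36 before that of Slc2a1 (chr4:119108697-119108726, plus strand). It lay 68 bases before the start of Egln1 (chr8:124949305-124949334, minus strand), 18 before that of Car9 (chr4:43506995-43507024, minus strand) and 16 before that of P4ha1 (chr10:59323267-59323296, minus strand). For Slc16a3 the distance was 14 bases (chr11:120949041-120949070, plus strand) and for Ankrd37 6 bases (chr8:45999839-45999868, minus strand). For Ldha it was 34 bases (chr7:46845757-46845786, minus strand), for Pgk1 131 bases (chrX:106186956-106186985, minus strand) and for Hk2 52 bases (chr6:82774490-82774519, plus strand). ACGTG was in 7 of the 11 promoters of genes that fell in RD7 against R, or 63.6%, and in 15 of the 21 of genes not called, or 71.4%. The windows of Pfkp, Pfkfb4, Car12, Pdk1 and Stc2, which were also called in RD7 against R, held no ACGTG, which says only that these letters are not in them. The other form of the core, GCGTG, was in those of Pfkp, Pfkfb4, Pdk1 and Stc2, and that of Car12 held neither form.

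Hif1a RNA stood at 45.1, 32.5 and 30.4 FPKM in the RD7 libraries, 98.6, 111 and 111 FPKM in the R libraries and 96.02, 115 and 87.5 FPKM in the BM libraries. Every RD7 library lay below every other library, and the R and BM libraries overlapped. Hif1a was 2.97-fold lower in RD7 than in R (log2 fold change -1.58 ± 0.17, adjusted p = 7.96e-05 by limma) and 2.77-fold lower in RD7 than in BM (-1.47 ± 0.17, adjusted p = 0.000125). Between R and BM its change was 0.11 ± 0.17, with a 95% confidence interval of -0.27 to 0.49 (adjusted p = 0.71). The gene lies on chromosome 12 of GRCm38, and 8.1% of its exon bases are shared with Gm15283 and Gm49321, so reads there cannot be told apart, also because the library kit does not mark strand.

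Egln1 encodes the prolyl hydroxylase that does most of the marking of HIF-1α in normal oxygen, and is itself a HIF target. Its values were 51.7, 54.4 and 44.7 FPKM in the RD7 libraries, 84.3, 91.4 and 85.7 FPKM in the R libraries and 70.3, 65.03 and 64.4 FPKM in the BM libraries. The groups did not overlap, with RD7 lowest and R highest. Egln1 fell 1.73-fold in RD7 against R (log2 fold change -0.79 ± 0.12, adjusted p = 0.000766 by limma), and its difference between R and BM did not pass (0.39 ± 0.12, adjusted p = 0.0739). Egln3, a related hydroxylase with a strong response to low oxygen, stood at 134, 139.9 and 154 FPKM in the RD7 libraries, 158, 164 and 150.2 FPKM in the R libraries and 115, 106 and 121 FPKM in the BM libraries. Here the R libraries lay above all BM libraries, and the RD7 libraries overlapped with R. Egln3 was 1.37-fold higher in R than in BM (0.46 ± 0.12, adjusted p = 0.0335 by limma), and in RD7 against R the change was -0.14 ± 0.12 (interval -0.40 to 0.12, adjusted p = 0.385). The Egln3 call in R against BM was lost without BM 1, BM 2 or any 1 of the R libraries, and with the dependence on gene length removed (log2 fold change 0.33, adjusted p = 0.0699).

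Carbonic anhydrases IX and XII sit on the cell surface and convert carbon dioxide and water to bicarbonate and acid, which lets glycolytic cells export acid. Car9 had 12.95, 17.1 and 12.3 FPKM in the RD7 libraries, 77.2, 84.6 and 79.2 FPKM in the R libraries and 52.8, 59.2 and 59.2 FPKM in the BM libraries. The 3 groups did not overlap, and the RD7 libraries lay far below both others. The fall in RD7 against R had a log2 value of -2.48 ± 0.14 (adjusted p = 7.73e-07 by limma), and in RD7 against BM it was -1.99 ± 0.14 (adjusted p = 4.24e-06, 4.04-fold lower). Car9 was 1.41-fold higher in R than in BM, which missed the threshold (adjusted p = 0.0584 by limma). This difference was called in 3 of the 17 settings. The adjusted p was 0.0428 without BM 3, 0.0317 without RD7 2 and 0.0416 with limma-voom on the reads.

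The reads of Car9 may include some from Gm12454 on the opposite strand, which shares 9.3% of the exon bases of Car9. Car12, the gene of carbonic anhydrase XII, had 13.4, 10.1 and 10.3 FPKM in the RD7 libraries, 28.5, 30.4 and 34.5 FPKM in the R libraries and 19.02, 24.7 and 16.2 FPKM in the BM libraries. All RD7 libraries lay below all BM libraries, and these below all R libraries. Car12 was 1.56-fold higher in R than in BM (0.65 ± 0.18, adjusted p = 0.0463 by limma) and 2.76-fold lower in RD7 than in R (-1.43 ± 0.18, adjusted p = 0.000201). The call in R against BM was lost without BM 1, BM 3, R 1, R 2, R 3, RD7 2 or RD7 3, with an adjusted p of up to 0.136 over all settings, and the call in RD7 against R was kept in all 17.

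Among the secreted factors, Stc1 had the largest change of the 36 genes in both comparisons. Stanniocalcin-1, its product, is a secreted glycoprotein first known from calcium control in fish. Stc1 stood at 0.149, 0.266 and 0.0158 FPKM in the RD7 libraries, 9.16, 9.73 and 10.2 FPKM in the R libraries and 0.616, 0.487 and 0.286 FPKM in the BM libraries, which corresponded to 10, 19 and 1 reads in RD7 1 to 3, 547, 847 and 830 reads in R 1 to 3, and 15, 44 and 21 reads in BM 1 to 3. The gene was low in RD7 and BM and far higher in all R libraries. Its log2 fold change was 3.42 ± 0.19 in R against BM (adjusted p = 2.24e-06 by limma) and -4.005 ± 0.19 in RD7 against R (adjusted p = 2.06e-07). Over the 17 settings the value was between 2.88 and 4.52 in R against BM and between -6.55 and -3.23 in RD7 against R, with both calls kept throughout.

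Stc2, the related stanniocalcin, had 4.22, 4.33 and 4.54 FPKM in the RD7 libraries, 12.5, 12.1 and 11.9 FPKM in the R libraries and 8.76, 10.3 and 11.4 FPKM in the BM libraries. Every RD7 library lay below every R and BM library, and every R library lay above every BM library. Stc2 fell 2.79-fold in RD7 against R (-1.38 ± 0.14, adjusted p = 3.66e-05 by limma), while in R against BM the change of 0.26 ± 0.14 was not called (adjusted p = 0.252). Vegfa, the growth factor that directs blood vessel growth, had 22.7, 21.4 and 15.9 FPKM in the RD7 libraries, 42.7, 46.7 and 49.1 FPKM in the R libraries and 40.6, 45.9 and 38.2 FPKM in the BM libraries. The RD7 libraries were the lowest, and R and BM overlapped. Vegfa fell 2.31-fold in RD7 against R (-1.20 ± 0.15, adjusted p = 0.000243 by limma), and its change in R against BM was 0.15 ± 0.15 (interval -0.19 to 0.49). Adm, the gene of the vasodilator peptide adrenomedullin, overlapped between all groups, at 10.8 to 13.7 FPKM in RD7, 13.03 to 17.8 in R and 10.3 to 15.4 in BM.

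Slc2a1 encodes GLUT1, the glucose transporter that carries most basal glucose uptake in many epithelia. It had 156, 125 and 150.4 FPKM in the RD7 libraries, 211, 219 and 233 FPKM in the R libraries and 195, 159 and 159 FPKM in the BM libraries. All RD7 libraries lay below all BM libraries, and these below all R libraries. Slc2a1 was 1.54-fold lower in RD7 than in R (-0.62 ± 0.14, adjusted p = 0.00725 by limma), a call kept in all 17 settings, and 1.29-fold higher in R than in BM without a call (0.38 ± 0.14, adjusted p = 0.126). Slc2a3, the gene of the neuronal-type transporter GLUT3, never exceeded 0.137 FPKM, with 0 to 10 reads in the RD7 libraries, 10 to 23 in R and 5 to 19 in BM.

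At the other end of the pathway Slc16a3 encodes MCT4, the transporter through which glycolytic cells export lactate. It had 39.7, 44.7 and 31.4 FPKM in the RD7 libraries, 45.8, 46.05 and 52.4 FPKM in the R libraries and 32.4, 28.7 and 29.5 FPKM in the BM libraries. All R libraries lay above all RD7 and BM libraries, and RD7 lay between with overlap only towards BM. Slc16a3 rose 1.59-fold in R against BM (0.66 ± 0.15, adjusted p = 0.0175 by limma), a call lost without BM 2, R 1, R 2 or R 3. Its change in RD7 against R was -0.33 ± 0.15 (interval -0.65 to 0.00, adjusted p = 0.12).

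The 14 enzymes of the glycolytic chain gave the most abundant RNAs of the list. Their highest levels were those of Ldha, Pkm, Gapdh, Eno1, Tpi1 and Aldoa, and their lowest those of Hk2, Aldoc, Pfkp and Hk1. In RD7 against R, 2 of the 14 fell, or 14.3%, near the 17.7% of all genes tested that were called lower. None rose, where 13.3% of all genes tested were called higher. The median log2 fold change was -0.23, beside -0.09 for all genes tested. For 6 of the 14 every RD7 library lay below every R library, and for 0 above, where 30.1% and 21.7% of all genes did so. Of the same 14 none rose and 1 fell, or 7.14%, in R against BM. Among all genes tested 4.36% were called higher and 5.64% lower in that comparison. Still, 10 of the 14 had a positive value and their median was 0.32, beside 0.02 for all genes tested. For 9 of the 14, or 64.3%, the unadjusted p in R against BM was under 0.05, as it was for 25.9% of all genes tested. The other 22 genes of the list had 6 higher calls, or 27.3%, and 0 lower in R against BM. In RD7 against R these 22 had 1 higher call, or 4.55%, and 10 lower, or 45.5%.

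**Figure D2:**
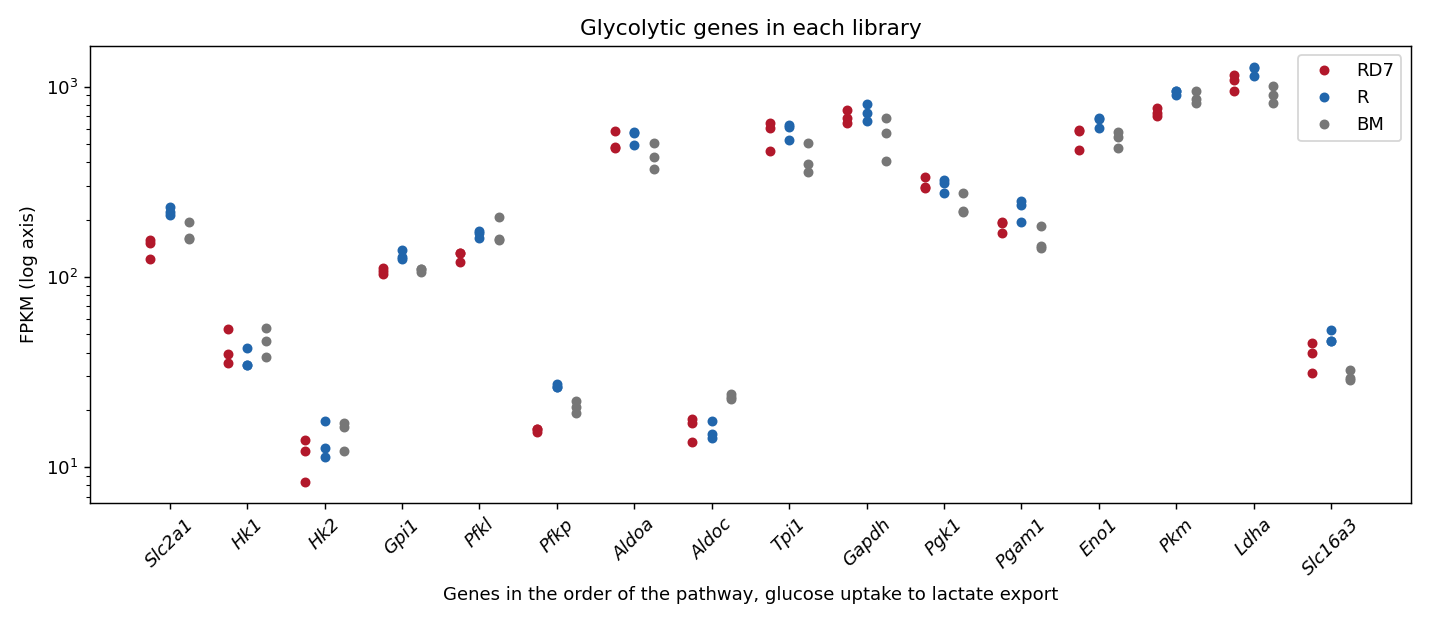
FPKM (log axis) of 16 genes in each library, in the order of the pathway; each point is a library and colours mark RD7, R and BM, n = 3 each. Slc2a1, Gpi1, Pfkl, Pfkp, Pgam1, Eno1, Pkm and Slc16a3 were lower in all RD7 libraries than in any R library. Of these only Slc2a1, Pfkp and Pkm were called in RD7 against R. Gapdh, Pgam1, Eno1 and Ldha overlapped between RD7 and BM.

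In the upper steps glucose is phosphorylated by hexokinase and committed to breakdown by phosphofructokinase. Hk2, the hexokinase that HIF raises in many cells, had 12.2, 8.37 and 13.9 FPKM in the RD7 libraries, 12.6, 11.3 and 17.4 FPKM in the R libraries and 16.2, 17.1 and 12.2 FPKM in the BM libraries. The groups overlapped, and the interval of its change was -0.76 to 0.24 in RD7 against R and -0.64 to 0.36 in R against BM. Pfkp, the platelet-type phosphofructokinase, had 15.2, 15.9 and 15.8 FPKM in the RD7 libraries, 26.2, 27.4 and 26.4 FPKM in the R libraries and 20.7, 22.1 and 19.3 FPKM in the BM libraries. The groups did not overlap, with RD7 lowest. Pfkp fell 1.71-fold in RD7 against R (-0.75 ± 0.11, adjusted p = 0.000672 by limma), and this held in all 17 settings. In RD7 against BM it was also called (-0.40 ± 0.11, adjusted p = 0.0172), but with the dependence on gene length removed that value was -0.01 (adjusted p = 0.945), and the call was also lost without BM 2. The exon length of Pfkp that made its reads whole was 9395 bases, against a median of 3567 over the genes tested.

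Aldolase splits the sugar into 3-carbon units, and Aldoc is the isoenzyme best known from brain. Aldoc had 13.5, 17.01 and 17.9 FPKM in the RD7 libraries, 14.9, 17.4 and 14.2 FPKM in the R libraries and 24.1, 22.7 and 23.3 FPKM in the BM libraries. The BM libraries lay above all others, and RD7 and R overlapped. It was the only one of the 36 genes called lower in R against BM, 1.51-fold lower (-0.58 ± 0.14, adjusted p = 0.0261 by limma), and that call was lost without BM 1, BM 2, R 1 or R 3. In RD7 against BM, Aldoc had -0.53 ± 0.14 (adjusted p = 0.0134). The other upper-step enzymes, Hk1, Gpi1, Pfkl, Aldoa and Tpi1, were not called in RD7 against R or R against BM, with log2 fold changes between -0.38 and 0.18 in RD7 against R and between -0.29 and 0.50 in R against BM. Pfkl, the liver-type phosphofructokinase and the most abundant of its family, was lower in RD7 than in BM (-0.42 ± 0.14, adjusted p = 0.0288 by limma), a call lost without BM 1, RD7 2 or RD7 3 and with the length dependence removed (adjusted p = 0.147).

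Of the lower steps, Pkm, the gene of the muscle-type pyruvate kinase, had 725, 769 and 702 FPKM in the RD7 libraries, 945, 952 and 907 FPKM in the R libraries and 953, 863 and 819 FPKM in the BM libraries. The RD7 libraries were the lowest and R and BM overlapped. Pkm fell 1.28-fold in RD7 against R (-0.35 ± 0.12, adjusted p = 0.0414 by limma), a call lost in 10 of the 17 settings, among them each in which an R or RD7 library was left out (adjusted p of up to 0.134). With the length dependence removed the log2 fold change of Pkm was -0.17 (adjusted p = 0.288). Of its exon bases 15.3% are shared with Gm49759.

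Ldha, the lactate dehydrogenase subunit that favours lactate formation, had 949.6, 1146 and 1087 FPKM in the RD7 libraries, 1272, 1256 and 1130.3 FPKM in the R libraries and 906, 821 and 1012 FPKM in the BM libraries. The R libraries lay above all BM libraries, and RD7 overlapped with both. Its change in R against BM was 0.42 ± 0.13 (adjusted p = 0.0783 by limma). This change was called in 2 of the 17 settings. The adjusted p was 0.0366 with limma-voom on the reads and 0.0239 without BM 3, the highest of the BM libraries. Pgk1, which makes the first ATP of the pathway, had 293, 296 and 333 FPKM in the RD7 libraries, 313, 323 and 276 FPKM in the R libraries and 221, 218 and 274 FPKM in the BM libraries. The BM libraries lay below all R and RD7 libraries, and those overlapped. Pgk1 was called in RD7 against BM (0.38 ± 0.14, adjusted p = 0.0438), a call lost in 11 of the 17 settings, among them each that left out a library other than BM 3. For R against BM the change of 0.36 ± 0.14 was not called (adjusted p = 0.136; 0.0276 without BM 3).

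Gapdh, Pgam1 and Eno1 had log2 fold changes between -0.29 and -0.08 in RD7 against R and between 0.30 and 0.53 in R against BM. None of them was called, and the nearest was Pgam1 in R against BM (adjusted p = 0.0517 by limma). Aldoa, Gapdh, Pgam1 and Ldha each have 2 named pseudogene copies in GENCODE M21 and Pgk1 has 3, so their reads could have been split between copies and their levels are uncertain to that extent.

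Pfkfb3 and Pfkfb4 encode enzymes that make and break the sugar phosphate which activates phosphofructokinase. Pfkfb4 had 3.46, 1.83 and 3.36 FPKM in the RD7 libraries, 1.11, 0.864 and 0.995 FPKM in the R libraries and 0.851, 1.27 and 0.429 FPKM in the BM libraries, from 302, 170 and 277 reads in RD7 1 to 3, 86, 98 and 105 in R 1 to 3, and 27, 149 and 41 in BM 1 to 3. Every RD7 library lay above every other library. It was the only one of the 36 genes called higher in RD7 against R, 2.92-fold higher (1.15 ± 0.27, adjusted p = 0.00928 by limma), and the call was kept in all 17 settings. Pfkfb3 overlapped between the groups at 2.51 to 3.34 FPKM in RD7, 2.91 to 3.81 in R and 2.74 to 3.76 in BM.

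Of the 4 genes at the border between glycolysis and mitochondria, 1 was called in RD7 against R, as lower, and none in R against BM. Among all genes tested 17.7% were called lower and 13.3% higher in RD7 against R. In R against BM 5.64% of all genes were called lower and 4.36% higher. So few genes cannot show a departure from these shares. Pdk1 encodes a kinase that shuts pyruvate dehydrogenase and so holds back the use of pyruvate in the mitochondria. It had 7.11, 4.68 and 5.41 FPKM in the RD7 libraries, 9.37, 10.97 and 10.98 FPKM in the R libraries and 9.90, 17.96 and 9.06 FPKM in the BM libraries, with BM 2 the highest library and the RD7 libraries the lowest. Pdk1 fell 1.82-fold in RD7 against R (-0.83 ± 0.25, adjusted p = 0.0286 by limma), a call lost without R 2, R 3, RD7 2 or RD7 3. Bnip3 and Bnip3l, which mark mitochondria for removal, and Higd1a, a protein of the respiratory chain, were not called in either comparison. Bnip3 lay at 64.4 to 83.5 FPKM in RD7, 83.3 to 100.9 in R and 59.99 to 88.9 in BM, and Bnip3l at 50.3 to 66.7 FPKM in RD7, 49.5 to 62.2 in R and 35.01 to 55.4 in BM. Higd1a stood at 14.5 to 23.4 FPKM in RD7, 11.1 to 13.97 in R and 7.60 to 12.7 in BM, and was called higher in RD7 against BM (0.88 ± 0.24, adjusted p = 0.0142 by limma), a call lost without BM 1, BM 2 or RD7 2. Exons on the opposite strand share 22.5% of the exon bases of Higd1a and 22.3% of those of Bnip3.

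P4ha1 encodes the catalytic subunit of the enzyme that hydroxylates proline in collagen, and had 16.03, 15.4 and 14.4 FPKM in the RD7 libraries, 32.1, 30.7 and 32.03 FPKM in the R libraries and 23.5, 20.5 and 22.9 FPKM in the BM libraries. The groups did not overlap, with R highest and RD7 lowest. P4ha1 was 1.42-fold higher in R than in BM (0.49 ± 0.12, adjusted p = 0.0209 by limma; lost without BM 2 or any 1 of the R libraries) and 2.07-fold lower in RD7 than in R (-1.02 ± 0.12, adjusted p = 0.000101). P4ha2, a related gene, lay between 15.3 and 18.1 FPKM in all 9 libraries and was not called. Kdm3a, a histone demethylase, was not called either, with 7.12 to 11.3 FPKM in RD7, 7.29 to 8.86 in R and 7.29 to 16.7 in BM.

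Ankrd37, a small ankyrin-repeat gene used as a marker of HIF activity, took another course. It had 13.7, 18.7 and 17.04 FPKM in the RD7 libraries, 14.7, 13.05 and 12.3 FPKM in the R libraries and 5.39, 5.57 and 9.05 FPKM in the BM libraries. All RD7 and R libraries lay above all BM libraries, and RD7 overlapped with R. Ankrd37 was 2.00-fold higher in R than in BM (0.98 ± 0.20, adjusted p = 0.0114 by limma; lost without BM 1 or R 1) and 2.47-fold higher in RD7 than in BM (1.27 ± 0.20, adjusted p = 0.00101). In RD7 against R its change was 0.29 ± 0.20 (interval -0.16 to 0.74). Ufsp2 and Lrp2bp, on the opposite strand, share 26.4% of its exon bases, so part of its reads may be theirs.

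**Figure D3:**
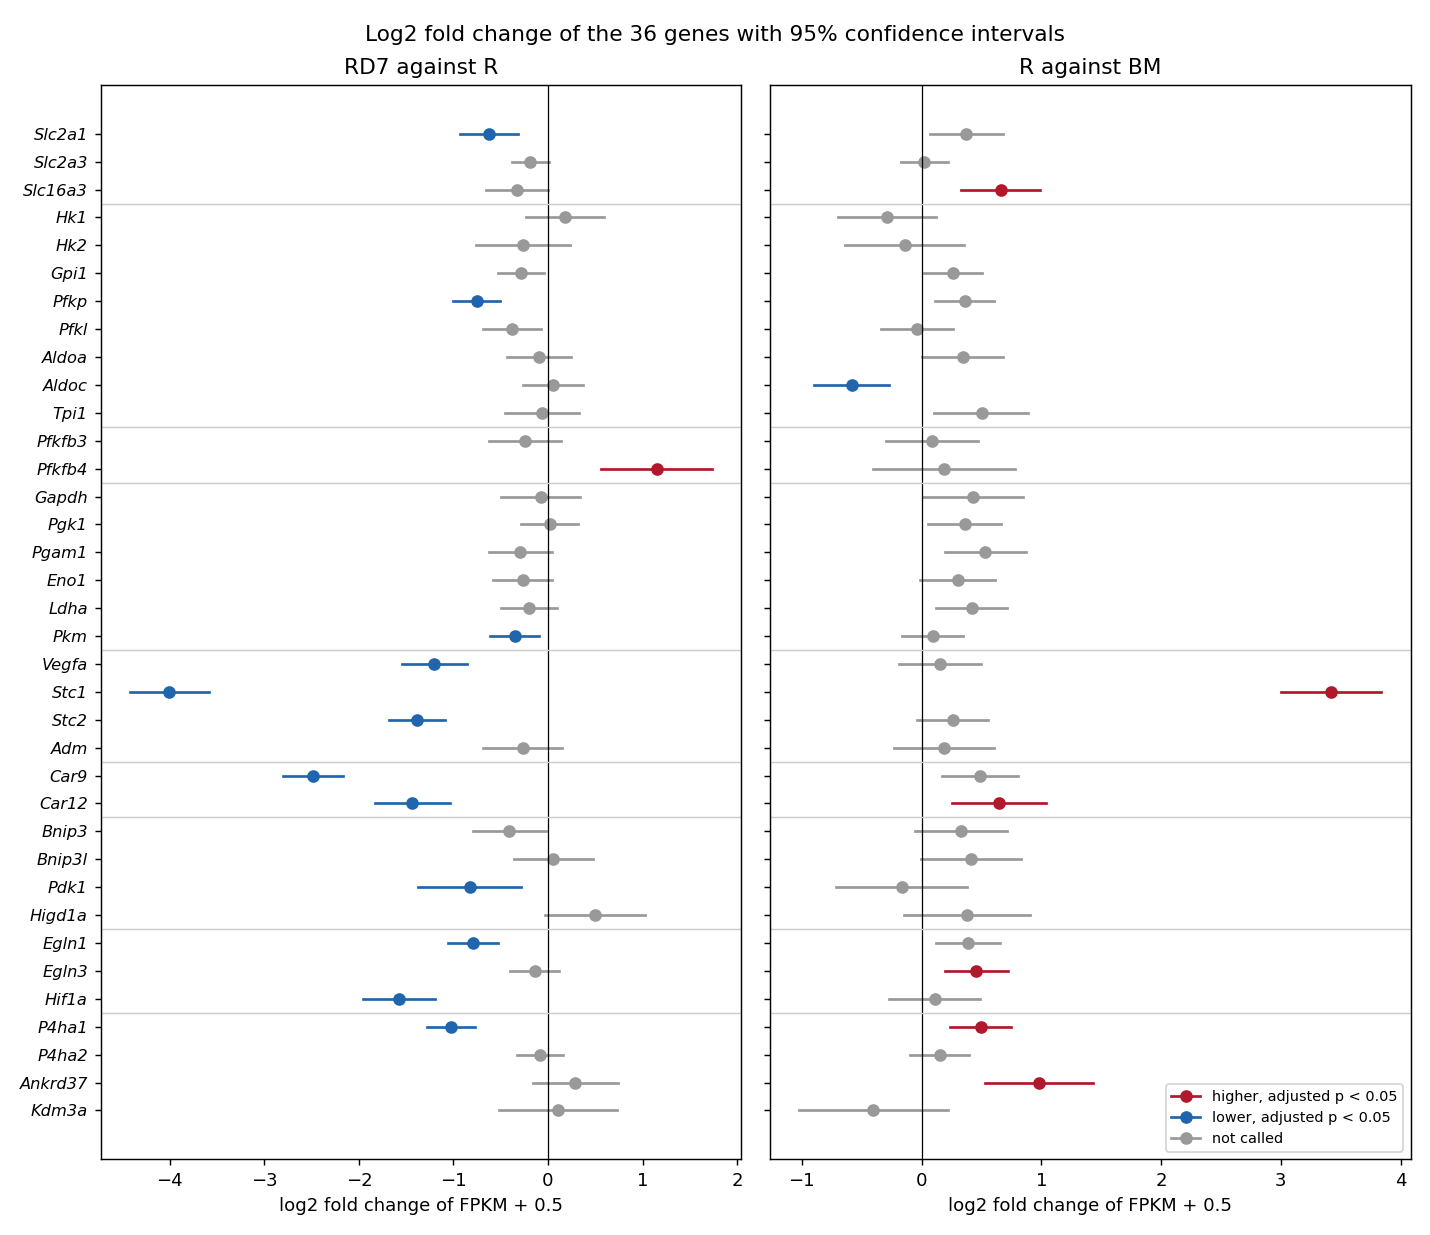
Log2 fold changes of the 36 genes in RD7 against R and in R against BM (horizontal axes, log2 of FPKM + 0.5, scales differ between panels); lines are 95% confidence intervals from limma, n = 3 libraries per group, and colours mark the calls. In RD7 against R 12 genes were called lower and Pfkfb4 higher, and in R against BM 6 were called higher and Aldoc lower.

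Over the whole list the median log2 fold change was -0.27 in RD7 against R, beside -0.09 for all genes tested, and 0.34 in R against BM, beside 0.02 for all genes. The value was positive for 8 of the 36 genes in RD7 against R, or 22.2%, beside 41.8% of all genes, and for 30 of the 36 in R against BM, or 83.3%, beside 51.9% of all genes. The R libraries are part of both comparisons. Every RD7 library lay below every R library for 18 of the 36 genes and above for 2, where 30.1% and 21.7% of all genes did so. Every R library lay above every BM library for 18 genes and below for 1, where 15.8% and 14.4% of all genes did so. The count of genes called higher in R against BM rested on single libraries: it was 1 without R 1, 2 without R 2, 3 without BM 1, BM 2 or R 3, and 13 without BM 3. The 12 genes called lower in RD7 against R numbered between 10 and 15 in all 17 settings.

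RD7 against BM compares organoids with both agents and those with neither, and shares libraries with both comparisons above. Of the 36 genes, 12 fell, or 33.3%, and 5 rose, or 13.9%, where 25.3% of all genes tested were called lower and 21.5% higher. Those that fell were Car9, Hif1a, Stc2, Vegfa, Pdk1, Car12, Stc1, P4ha1, Aldoc, Pfkl, Egln1 and Pfkp, with log2 fold changes between -1.99 and -0.40. Those that rose were Pfkfb4, Ankrd37, Higd1a, Pgk1 and Egln3, with values between 0.32 and 1.33. The largest were Car9 and Hif1a downwards and Pfkfb4 (1.33 ± 0.27, adjusted p = 0.00346 by limma) upwards. The number called higher was 2 without BM 1, BM 2 or RD7 2, 3 without any 1 of the R libraries, and 8 without BM 3. Stc1 had 0.144 ± 0.125 FPKM in RD7 and 0.463 ± 0.166 FPKM in BM (SD, n = 3), a difference called at an adjusted p of 0.0284 and lost without BM 1, BM 2, RD7 1 or RD7 3. The Egln1 call in RD7 against BM was lost without BM 1 or RD7 3, and that of Egln3 without any 1 library other than BM 3 and RD7 1.

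Several genes of the list belong to families whose members do the same reaction, and the make-up of these families was compared as shares of summed FPKM. These families were chosen after the values were seen, and with 3 libraries against 3 the smallest two-sided p of an exact permutation test is 0.1, so no share could pass 0.05. Among the HIF α subunits, Hif1a made up 79.2% ± 1.06 in RD7, 95.9% ± 1.48 in R and 89.6% ± 2.03 in BM (SD, n = 3), and Epas1, which encodes HIF-2α, made up 19.5% in RD7, 4.10% in R and 9.89% in BM. The summed FPKM of the 3 α subunit genes was 45.5 ± 10.4 in RD7, 112 ± 7.78 in R and 111 ± 14.1 in BM. Among the prolyl hydroxylases, Egln1 held 18.4% ± 2.26 in RD7, 30.6% ± 0.587 in R and 30.4% ± 1.14 in BM. Egln2, the hydroxylase that responds least to low oxygen, held 29.7% ± 0.447 in RD7, 14.4% ± 0.285 in R and 17.5% ± 1.24 in BM.

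The kinases of pyruvate dehydrogenase and the lactate transporters were compared in the same way. Pdk1 held 9.13% ± 2.17 of the kinase FPKM in RD7, 27.0% ± 2.20 in R and 27.4% ± 8.54 in BM. The summed FPKM of the 4 kinase genes was 63.0 ± 1.39 in RD7, 38.8 ± 3.57 in R and 44.2 ± 4.06 in BM, with Pdk2 and Pdk3 making up the rest almost alone. The summed FPKM of the 3 monocarboxylate transporter genes was 50.9 ± 7.27 in RD7, 79.8 ± 4.798 in R and 58.3 ± 3.65 in BM, and Slc16a3 itself averaged 38.6 ± 6.72 FPKM in RD7 and 48.1 ± 3.75 FPKM in R. Slc16a3 held 75.6% ± 2.94 of the monocarboxylate transporter FPKM in RD7, 60.2% ± 1.27 in R and 52.0% ± 4.70 in BM, while Slc16a1, which encodes MCT1, held 22.1% ± 2.55 in RD7, 38.6% ± 1.32 in R and 44.0% ± 4.13 in BM. For the shares of Pdk1, Slc16a3 and Slc16a1 no RD7 library overlapped with an R library. Ldha held at least 97.8% of the lactate dehydrogenase FPKM in every library, and Pfkl between 83.1% and 88.3% of the phosphofructokinase FPKM.

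**Figure D4:**
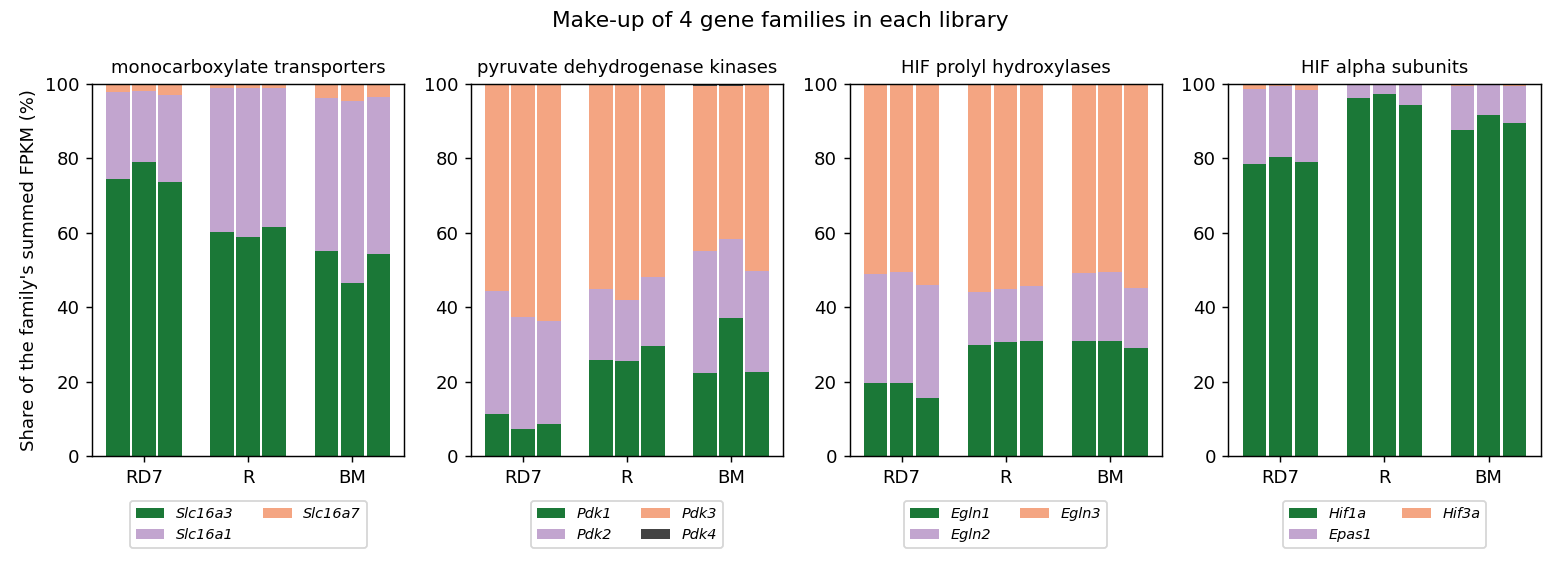
Share of each gene in the summed FPKM of its family (vertical axis, %, stacked to 100) for 4 families in each library of RD7, R and BM, 1 bar per library. Hif1a held 79.2% on average in RD7 and 95.9% in R, and Pdk1 held 9.13% in RD7 and 27.0% in R.

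Other genes of the same pathways, from lists that do not hold the 36, were compared in the same tests, and genes were ranked on the log2(FPKM + 0.5) scale. Of 37 other hypoxia-response genes tested, 11 fell, or 29.7%, and 6 rose, or 16.2%, in RD7 against R. Among all genes tested 17.7% were called lower and 13.3% higher. The median log2 fold change of the 37 was -0.18, beside -0.09 for all genes. The lowest were Tgfb3, a TGF-β ligand (-2.86 ± 0.23), Igfbp3, an IGF-binding protein (-2.08 ± 0.13), and Ak4, a mitochondrial adenylate kinase (-1.11 ± 0.24). The highest were Nos2, the inducible nitric oxide synthase (1.36 ± 0.27), Cited2, which competes with HIF for a coactivator (1.23 ± 0.17), and Cp, which encodes ceruloplasmin (1.13 ± 0.14). In R against BM, 4 of the 37 rose, or 10.8%, and 8 fell, or 21.6%, where 4.36% and 5.64% of all genes did so. The median of the 37 was -0.13, beside 0.02 for all genes. Those highest were Ddit4 (0.89 ± 0.17), an inhibitor of mTOR signalling, Ero1l (0.65 ± 0.13), an oxidase of the endoplasmic reticulum, and Bhlhe40 (0.65 ± 0.12), a transcriptional repressor. Those lowest were Ppp1r3b (-1.66 ± 0.23), a glycogen-targeting phosphatase subunit, Cp (-1.23 ± 0.14) and Tfrc (-1.19 ± 0.29), the transferrin receptor, whose call was lost without BM 2, RD7 3 or any 1 of the R libraries. By ratio of mean FPKM the order differs: Ppp1r3c (4.06-fold lower) and Cxcr4 (2.95-fold) exceeded Cp (2.37-fold) and Tfrc (2.51-fold) in R against BM, and Cxcr4 was 6.56-fold lower in RD7 than in R. Ppp1r3c and Cxcr4 were named after their values were seen. The 36 genes and these other hypoxia-response genes had medians of opposite sign in R against BM.

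Of 9 further genes of oxygen sensing tested, 3 rose, or 33.3%, and 1 fell, or 11.1%, in RD7 against R. Among all genes tested 13.3% were called higher and 17.7% lower. Those that rose were Hif3a, a HIF α subunit with inhibitory forms (0.612 ± 0.321 FPKM in RD7 and 0.0182 ± 0.00851 FPKM in R, SD, n = 3), Egln2 (1.99-fold higher, 0.98 ± 0.11, adjusted p = 0.000119 by limma) and Epas1 (0.92 ± 0.26, lost without R 1, R 2 or RD7 1). Siah2, a ubiquitin ligase that acts on the hydroxylases, fell (-0.84 ± 0.13). In R against BM, Epas1 (-1.21 ± 0.26, lost without BM 1, R 1 or R 2) and Hif3a fell and none rose. Hif3a stood at 0.0182 ± 0.00851 FPKM in R and 0.617 ± 0.0513 FPKM in BM (SD, n = 3). The 2 genes that fell were 22.2% of the 9, where 5.64% of all genes were called lower.

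Of 19 other glycolysis genes tested, 2 rose, or 10.5%, and 3 fell, or 15.8%, in RD7 against R, near the 13.3% and 17.7% of all genes tested. In R against BM 1 fell, or 5.26%, near the 5.64% of all genes. The glucose transporter gene Slc2a12 rose 3.98-fold in RD7 against R (1.73 ± 0.21), and Bsg, the chaperone of the monocarboxylate transporters, rose 2.29-fold (1.19 ± 0.18). Slc16a1 (-1.43 ± 0.14), Ldhb (-1.14 ± 0.22) and the insulin-responsive glucose transporter gene Slc2a4 (-1.11 ± 0.14) fell. Slc16a7, a further monocarboxylate transporter gene, fell in R against BM (-0.999 ± 0.16).

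Genes of pyruvate entry into mitochondria gave 5 higher calls, or 33.3%, and 3 lower, or 20.0%, of 15 tested in RD7 against R. Among all genes tested 13.3% were called higher and 17.7% lower. The median of the 15 was 0.18, beside -0.09 for all genes. The highest were Pdk2 (1.38 ± 0.15) and the mitochondrial pyruvate carrier genes Mpc2 (1.21 ± 0.32, lost without R 2 or RD7 2) and Mpc1 (0.87 ± 0.23, lost without R 2, R 3, RD7 2 or RD7 3). The lowest were Dlat (-0.59 ± 0.14), a subunit of pyruvate dehydrogenase, Pdp1 (-0.58 ± 0.19, lost without any 1 of the R or RD7 libraries), its phosphatase, and Cs (-0.50 ± 0.13, lost without R 2, R 3 or RD7 3), citrate synthase. In R against BM, Pdk2 was the 1 gene called of the 15 (-0.70 ± 0.15, lost without R 1 or R 2). That is 6.67% of the 15, near the 5.64% of all genes called lower.

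In the pentose phosphate pathway, 2 of 8 genes tested rose in RD7 against R, H6pd (0.78 ± 0.26) and Taldo1 (0.57 ± 0.18), and H6pd fell in R against BM (-1.26 ± 0.26). The first 2 calls were lost when any 1 of several RD7 or R libraries was left out. Their adjusted p was up to 0.124 and 0.13 over all settings. The third call was lost without BM 1, R 1 or R 2. None of the 8 fell in RD7 against R, where 13.3% of all genes tested were called higher and 17.7% lower. None of the 8 rose in R against BM, where 4.36% of all genes were called higher and 5.64% lower. Of 5 gluconeogenesis genes tested, Pck2, the mitochondrial PEP carboxykinase, rose in R against BM (0.65 ± 0.12) and fell in RD7 against R (-0.91 ± 0.12). Fbp2 (-1.52 ± 0.25) and Fbp1 (-1.23 ± 0.20), the fructose bisphosphatases, fell in R against BM. G6pc3 rose in RD7 against R (0.50 ± 0.15), a call lost without any 1 of the R libraries, RD7 2 or RD7 3. Of these 5 genes 20.0% rose and 40.0% fell in R against BM, beside 4.36% and 5.64% of all genes. In RD7 against R 20.0% rose and 20.0% fell, beside 13.3% and 17.7%.

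**Figure D5:**
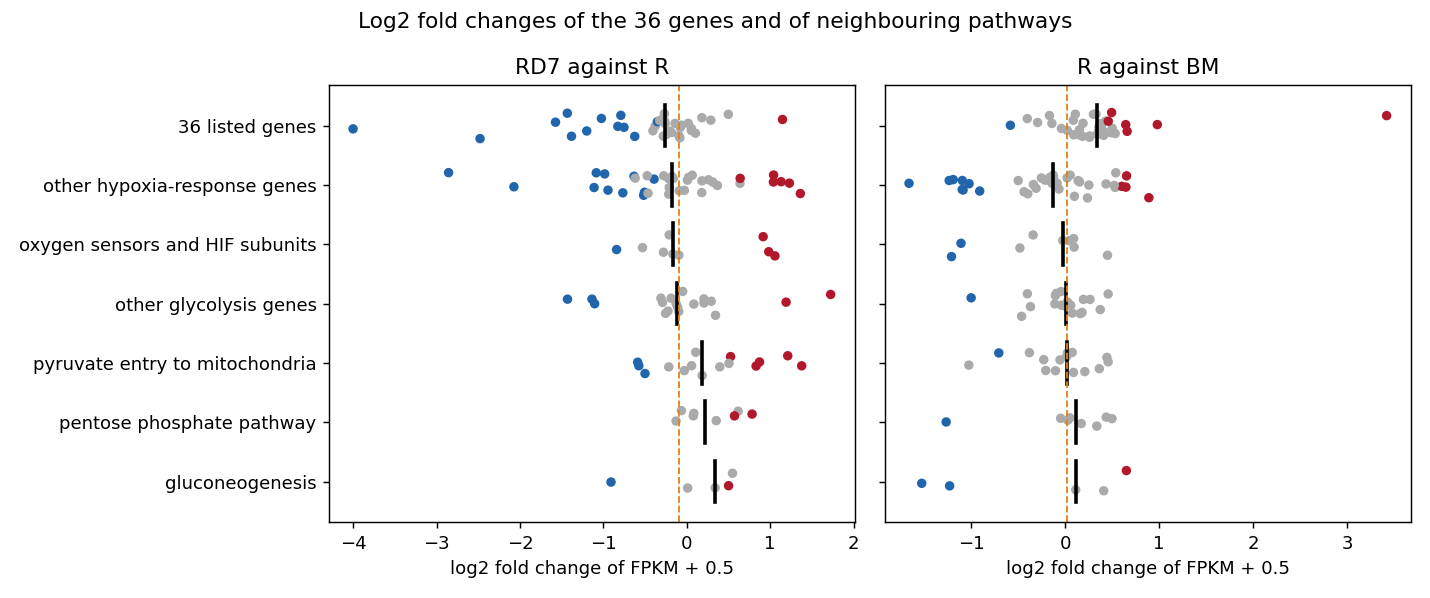
Log2 fold changes (horizontal axes, log2 of FPKM + 0.5, scales differ between panels) of the 36 genes and of 6 other lists in RD7 against R and R against BM; each point is a gene tested, black bars are list medians, the dashed line is the median of all genes tested, and red, blue and grey mark higher, lower and no call. The 36 genes had a median of -0.27 in RD7 against R and 0.34 in R against BM, and the other hypoxia-response genes -0.18 and -0.13.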

How the data were processed

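Per the labels, RNA from 9 organoid libraries (3 each of RD7, R and BM) was amplified with a SmartSeq kit, which does not mark strand. The authors deposited FPKM, 1 value per gene and library. Per the submitters' processing notes, CASAVA 1.9, STAR 2.6.1a, featureCounts, edgeR 3.24.1 and GRCm38 were used; their roles, the annotation release and the strand setting are not given in the sources used here. No columns of other samples were present.

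From the deposited FPKM, reads were read back with GENCODE M21 exon lengths: 22971 of 26813 genes above 0 came out whole within 0.01 of a read, and a length was fitted for 3841. Symbols came from M21, which lacked 259 identifiers. Genes reaching 0.5 CPM in 3 or more libraries entered the test on log2(FPKM + 0.5) with limma 3.58.1 (R 4.3.3), 1 mean per group, 6 residual degrees of freedom, a trended robust empirical Bayes step, two-sided, with Benjamini-Hochberg adjustment over all 15913 genes. The comparisons were RD7 against R, R against BM and RD7 against BM. There were 17 other settings: an added constant of 0.1 or 1 FPKM, no filter, a filter at 2 CPM, median-of-ratios scaling, removal of the length trend, limma-voom on the reads, a replicate block, and each of 9 libraries left out. When a library is left out, its group has 2 and shares the spread of the others.

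The 36 genes and all lists were chosen with earlier results of these data known, and family shares and the promoter search were added after values had been seen. Values per library are given for each of the 36 called in RD7 against R or R against BM and for Hif1a, Vegfa, Car9, Slc2a1, Hk2, Ldha and Pgk1. From each other list, up to 3 called genes with the highest and 3 with the lowest log2 fold change were named. Depth intervals and floors (3 reads) cover counting error only, since amplified reads carry no molecular identifiers. Tables and plots used Python 3.11.15, pandas 2.3.3, matplotlib 3.10.9 and numpy 2.4.6.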

Additional observations from a re-analysis of the deposited data

How the results depend on the processing

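Of 37 calls on the 36 genes (13 in RD7 against R, 7 in R against BM, 17 in RD7 against BM), 22 were kept under all 17 settings, 11, 1 and 10 by comparison, and none changed direction. In RD7 against R the calls lost were those of Pkm and Pdk1, and the counts of 12 lower and 1 higher stayed within 1.5 times under every setting. In R against BM the count of higher calls, 6, was between 1 and 13 when 1 library was left out, and that of lower calls, 1, was between 0 and 1. In RD7 against BM the 5 higher calls became 3 with no filter on low values, and between 2 and 8 when 1 library was left out. For all genes, 1591 calls in R against BM became between 890 and 3337 when 1 library was left out, 4930 in RD7 against R at least 3138, and 7457 in RD7 against BM at least 4674. The cause was not tested.

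The labels do not say whether same-numbered libraries belong together. Deviations of same-numbered libraries correlated between -0.52 and 0.27, and not every library correlated best with its own number. With 3 libraries per group these values cannot show whether the samples were paired. With the number as a replicate block, 2 genes were called higher and 0 lower in R against BM, and 3 higher in RD7 against BM. BM 1, with 6505859 reads, limits the precision of genes with few reads. With 3 libraries per group, an uncalled difference is not shown to be absent.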
